A study of Mus musculus with 6 samples.

Results

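The genes described here encode the machinery that moves secretory proteins into the endoplasmic reticulum (ER), attaches sugars to them and exports them in coated vesicles. The list was set by gene name, with no measured value in its rule, but earlier results of these data were known by then. It holds 50 genes of 10 machines, from the signal recognition particle to the COPI coat. Of these, 48 were measured by a probe set annotated to a single gene, among 18194 genes measured in all. *Srp54a* and *Sec61g* lie only on probe sets annotated to several genes and were left out, and the listed name *Copg* was read as *Copg1*. *Tmed2* had signals of 2 to 14 and stayed under the floor of 16 on every array, so that 47 genes had a usable signal.

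RNA of whole e15.5 mouse pancreases was hybridized to 6 Affymetrix arrays, 3 of *Jarid2* WT embryos and 3 of *Jarid2* Δpanc embryos, all labelled as strain C57BL/6. *Jarid2* Δpanc embryos carry Pdx1-Cre and a floxed *Jarid2* (Jarid2 flox/flox), so that exon 3 is deleted from pancreatic progenitors and their descendants, whereas *Jarid2* WT embryos are labelled as wild-type. The deletion is limited to the epithelium and is mosaic within it, while mesenchyme, vessels and blood cells of the samples keep the gene. A description label names islets in glucose, which conflicts with the other labels of the same samples and was not followed.

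A secretory protein is recognised by its signal sequence as it leaves the ribosome. The signal recognition particle (SRP) binds that sequence and docks on its receptor, the chain enters the ER through the Sec61 channel with the help of the translocon-associated protein (TRAP) complex, signal peptidase removes the signal sequence, and the oligosaccharyltransferase (OST) transfers a glycan to asparagines. COPII vesicles then carry the cargo to the Golgi with the help of p24 proteins and lectins, while KDEL receptors and COPI vesicles bring escaped ER residents back. Acinar cells of the pancreas, which make the digestive enzymes, are known for an exceptionally large secretory apparatus, and hormone cells depend on the same route.

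Promoter sequence of 39 of the 48 measured genes was held by the RefSeq table used here (build GRCm38.p6, 250 bases before to 50 after the start of each gene). The letters TGACGTGG, the core of the element bound by the spliced form of the ER stress factor Xbp1, were found on either strand in 5 of the 39 genes (12.8%) and in 0.714% of 27025 genes with a promoter in the table. These 5 sites are shown because the same letters stood near the start of genes of 3 different machines. Capitals mark the motif, which reads CCACGTCA where it lies on the opposite strand, and each window of 30 bases is written 5′ to 3′ in the orientation of its gene.
Copb1: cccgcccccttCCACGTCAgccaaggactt
Copb2: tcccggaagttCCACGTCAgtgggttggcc
Kdelr3: tggccgccccgCCACGTCAccgcgcggcca
Sec23a: ctcctccccttTGACGTGGcagaggcggca
Sec24d: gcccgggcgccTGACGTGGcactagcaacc

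The windows lie at chr7:114254690-114254719 (minus strand) for *Copb1*, chr9:98563713-98563742 (plus strand) for *Copb2*, chr15:79516367-79516396 (plus strand) for *Kdelr3*, chr12:59011993-59012022 (minus strand) for *Sec23a* and chr3:123267459-123267488 (plus strand) for *Sec24d*. The first base of the motif is 28, 7, 30 and 26 bases before the annotated start in *Copb1*, *Copb2*, *Kdelr3* and *Sec24d*, and 6 bases after it in *Sec23a*. The 5 genes belong to the COPI coat, the KDEL receptors and the COPII coat, and only *Sec24d* among them had all *Jarid2* Δpanc samples below all *Jarid2* WT samples. The shorter run ACGTG, contained in the first motif, occurred in 23 of the 39 promoters (59.0%) against 21.8% of all genes, and 8 of those 23 genes had non-overlapping groups with lower signals in *Jarid2* Δpanc, against 17 of all 39 genes with a promoter and 5.66% of all genes measured. The ER stress element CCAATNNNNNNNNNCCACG was in 0 of the 39 promoters and in 7 of 21 promoters of ER chaperone and stress genes, and the second element ATTGGNCCACG was in 0 of 39 and 2 of 21. Their shares over all genes were 0.137% and 0.0444%. The run ACGTG was in 9 of the 21 chaperone and stress promoters, and TGACGTGG in 0 of 21. Base composition was not matched, and a match of letters is not a measured binding site.

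Several facts of the samples bear on every gene below. *Jarid2* itself had signals of 335, 301 and 415 in *Jarid2* WT and 392, 398 and 355 in *Jarid2* Δpanc, and its probes were not placed relative to the deleted exon, so that they do not check the deletion. The X-inactivation transcript *Xist* had signals of 4197 to 4905 in all samples except replicates 1 and 2 of *Jarid2* WT (24 and 12), and the Y-linked *Eif2s3y* was at 560 and 506 in that pair and at 5 to 13 elsewhere, so that sex and genotype are partly confounded. Muscle genes were high in *Jarid2* WT replicate 3 alone (*Acta1* at 3076 and *Myh3* at 1540, against at most 62 and 32). The mean log2 signal of 6 liver genes, relative to the controls, was 1.25 in *Jarid2* WT replicate 2 and 1.32 in *Jarid2* Δpanc replicate 3. In the other samples it was -0.64 to -0.26. The nuclear RNA *Malat1* had 1503, 1221 and 1146 in *Jarid2* WT and 2756, 2801 and 3486 in *Jarid2* Δpanc. The pancreatic enzyme transcripts *Cpa1* and *Ctrb1* had signals of at least 11960 and 13150 on every array. In whole tissue, fewer cells of a type and less RNA per cell cannot be told apart.

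Signals of the secretory machinery were lower in *Jarid2* Δpanc pancreases across most of its parts, by small amounts that did not pass the test over all genes. Of the 48 genes, 41 had a negative log2 fold change, against 7870 of the 18194 genes measured. The median was -0.14, against 0.00 over all genes. In 20 genes (41.7%) the groups were separate, with all *Jarid2* Δpanc samples under the lowest control, and in 0 genes all were above the highest control, against 5.66% and 5.71% of the 18194 genes. At an unadjusted p under 0.05 in limma, 20 of the 48 genes were lower and 0 higher, against 4.44% and 4.36% of all genes. At an adjusted p under 0.05, limma called 0 of the 48 genes and 0% of all genes in either direction, and the lowest adjusted p among the 48 was 0.255, for *Spcs1*. The 20 genes with non-overlapping groups were 8.76% to 25.4% lower in *Jarid2* Δpanc, with a median of 15.7%. Standard errors (SE) had a median of 0.07 on the log2 scale, and no 95% interval reached below -0.73 or above 0.45.

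Bright genes leaned the same way as the list. Among 1252 genes with a mean signal over 1000, all *Jarid2* Δpanc samples lay below all controls in 19.3% and above them in 3.67%. The log2 fold change was negative in 816 of the 1252, with a median of -0.05. Of the 33 secretory machinery genes in that range, 17 (51.5%) lay below and 0 above, and 29 had a negative log2 fold change, with a median of -0.16. Among the 14 dimmer ones with signal, 3 lay below. All genes with a mean log2 signal of 6 or more, bright ones included, had 8.48% below and 7.51% above. The share in the exact range of the 14 was not counted. When the arrays were quantile normalized, which removes differences between their distributions of values, 14 of the 48 genes lay below all controls and 1 above, against 6.39% and 5.49% of all genes under that normalization, and the median of the list was -0.12. With *Jarid2* WT replicate 3, the control that matches the *Jarid2* Δpanc samples in *Xist*, as the only control, 40 of the 48 fold changes were negative. The median of the list was then -0.11, against 0.00 over all genes. In this setting 29 genes lay below that sample and 2 above it, against 22.2% and 20.1% of all genes. In that comparison 7 of the 48 and 6.12% of all genes were lower at an unadjusted p under 0.05, with a spread taken from the *Jarid2* Δpanc samples alone, so that the lone control is assumed to vary like them.

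**Figure D1:**
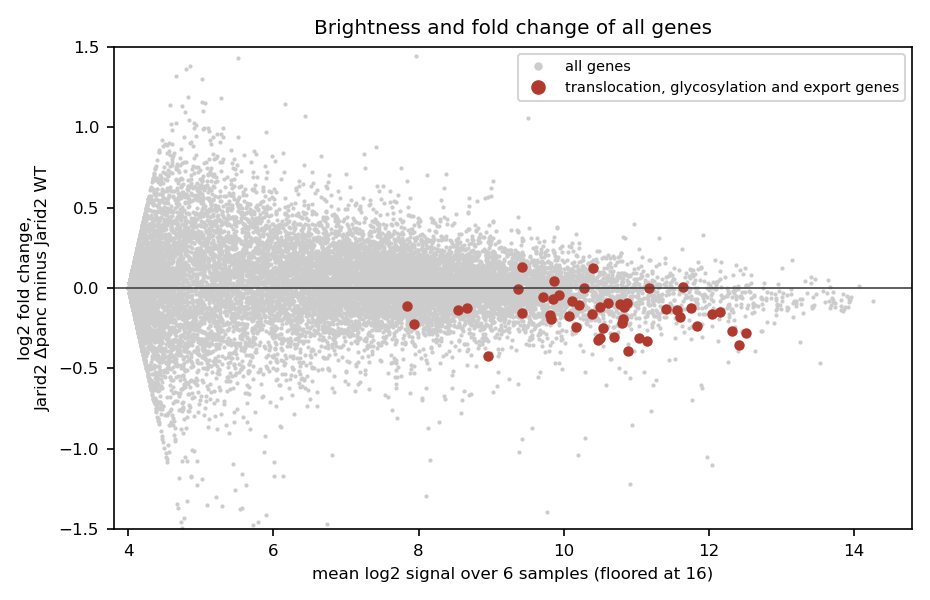
Mean log2 signal over the 6 samples (horizontal axis, values under 16 set to 16) against the log2 fold change of *Jarid2* Δpanc over *Jarid2* WT (vertical axis) for 18194 genes, with the 47 secretory machinery genes that had a signal in red. Most red points lie below 0 at the bright end, where the grey points of all genes also lean below 0, and 30 genes with a log2 fold change beyond 1.5 in either direction fall outside the axis.

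**Figure D2:**
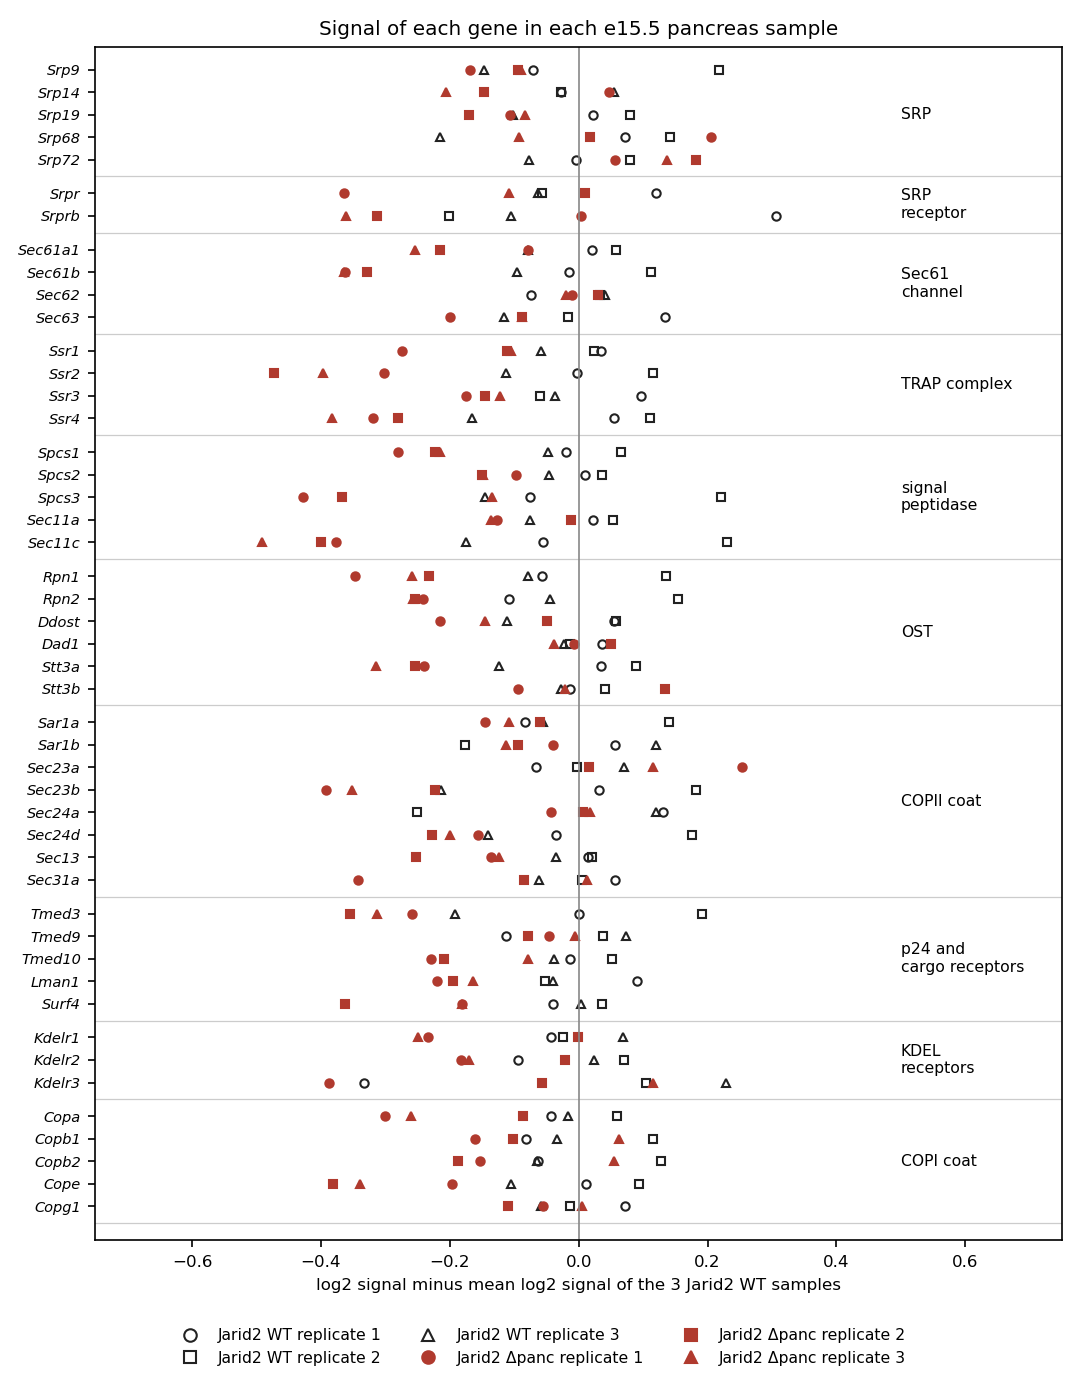
Log2 signal of each gene per sample, after subtraction of its mean over the 3 controls, in the order of the secretory route (open black symbols, *Jarid2* WT; filled red symbols, *Jarid2* Δpanc; *Tmed2*, at the floor, is left out). All 3 red symbols lie left of all 3 open symbols in 20 genes, among them the 4 genes of the TRAP complex.

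At the first step, targeting to the ER membrane, no gene had separate groups on its brightest probe set. The 5 measured SRP genes had a median log2 fold change of -0.10. *Srp19*, which organises the RNA of the particle, had signals of 1929, 2007 and 1769 in *Jarid2* WT and 1764, 1687 and 1793 in *Jarid2* Δpanc. The highest *Jarid2* Δpanc sample was thus above the lowest control, and the log2 fold change was -0.12 (SE 0.06, adjusted p = 0.671 from limma), or -0.05 after quantile normalization. *Srp9* and *Srp14*, whose products form the domain that pauses translation, had log2 fold changes of -0.12 and -0.10. *Srp68* and *Srp72*, which bind each other on the particle, had 0.04 and 0.13. A second probe set of *Srp72* ran the other way, at -0.19 with all *Jarid2* Δpanc samples below all controls, so that the direction of this gene is not settled.

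The SRP receptor has an α subunit that binds the particle and a β subunit that anchors it in the membrane. *Srpr*, the α subunit, had signals of 788, 697 and 694 in *Jarid2* WT and 563, 730 and 673 in *Jarid2* Δpanc. *Jarid2* Δpanc replicate 1 was lowest of all 6 samples while replicate 2 lay within the controls. The log2 fold change was -0.15 (SE 0.12, adjusted p = 0.817), and leaving out *Jarid2* Δpanc replicate 1, *Jarid2* Δpanc replicate 2 or *Jarid2* WT replicate 1 gave -0.05, -0.24 or -0.09. *Srprb*, the β subunit, had a log2 fold change of -0.22 with a SE of 0.18, and its groups overlapped. A dimmer probe set of *Srprb* (mean signal 144) had -0.34, with all *Jarid2* Δpanc samples below all controls.

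At the Sec61 channel, 1 of the 4 measured genes had separate groups. *Sec61b*, the small β subunit of the channel, had signals of 6083, 6642 and 5750 in *Jarid2* WT and 4779, 4896 and 4775 in *Jarid2* Δpanc. The 3 *Jarid2* Δpanc samples were close together and well under the lowest control, at a log2 fold change of -0.35 (SE 0.06, adjusted p = 0.256), the second lowest adjusted p of the list, and at -0.23 after quantile normalization. *Sec61a1*, which forms the pore itself, had signals of 3353, 3442 and 3130 in *Jarid2* WT and 3130, 2849 and 2771 in *Jarid2* Δpanc. Its groups met at 3130 without crossing, and the log2 fold change was -0.18. *Sec62*, which serves proteins that enter after their synthesis, had a log2 fold change of 0.00 with a 95% interval from -0.10 to 0.10. *Sec63*, which brings the chaperone Hspa5 to the channel, had -0.12 on its brightest probe set, but its 5 probe sets ranged from -0.68 to 0.18, and both of these extremes had separate groups in opposite directions.

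The TRAP complex sits beside the channel and helps weakly acting signal sequences. On the brightest probe sets, it was the only one of the 10 machines in which every measured gene had separate groups. *Ssr1*, the α subunit, had signals of 4566, 4530 and 4278 in *Jarid2* WT and 3686, 4124 and 4145 in *Jarid2* Δpanc. *Ssr2*, the β subunit, had 2173, 2357 and 2012 in *Jarid2* WT and 1764, 1568 and 1653 in *Jarid2* Δpanc. In *Ssr2* the gap between the groups was wider than the range of the *Jarid2* Δpanc samples, whereas in *Ssr1* replicate 1 of *Jarid2* Δpanc stood well below the other two. *Ssr3*, the γ subunit, had 5103, 4581 and 4654 in *Jarid2* WT and 4229, 4316 and 4387 in *Jarid2* Δpanc. *Ssr4*, the δ subunit, had 2631, 2733 and 2257 in *Jarid2* WT and 2029, 2084 and 1941 in *Jarid2* Δpanc. The log2 fold changes of *Ssr2* and *Ssr4* were -0.39 and -0.33 (SEs 0.08 and 0.08, adjusted p = 0.310 and 0.407), and those of *Ssr1* and *Ssr3* were -0.16 and -0.15 (SEs 0.06 and 0.05). After quantile normalization *Ssr1* and *Ssr3* had -0.09 and -0.06, and *Ssr1* had -0.11 without *Jarid2* Δpanc replicate 1. The next probe set of *Ssr1* (mean signal 1691) had -0.30 with overlapping groups. *Ssr4* had -0.16 with the mean of its probe sets. It also had -0.16 with *Jarid2* WT replicate 3, which matches the *Jarid2* Δpanc samples in *Xist*, as the only control. No subunit passed the test over all genes.

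Signal peptidase consists of a catalytic subunit, Sec11a or Sec11c, and 3 accessory subunits. *Spcs1*, an accessory subunit, had signals of 3934, 4174 and 3859 in *Jarid2* WT and 3282, 3417 and 3436 in *Jarid2* Δpanc. Its groups were separate at a log2 fold change of -0.24 (SE 0.04, adjusted p = 0.255), the lowest adjusted p of the list. *Spcs2* had 2880, 2935 and 2772 in *Jarid2* WT and 2674, 2579 and 2581 in *Jarid2* Δpanc, a smaller difference with tight groups (log2 fold change -0.13, SE 0.03). *Sec11c*, one of the catalytic subunits, had 555, 676 and 511 in *Jarid2* WT and 444, 437 and 410 in *Jarid2* Δpanc. It had the most negative log2 fold change of the list at -0.42 (SE 0.12, adjusted p = 0.421), and *Jarid2* WT replicate 2 stood above the other controls. The other catalytic subunit, *Sec11a*, had -0.09, and *Spcs3* had -0.31 with a SE of 0.13 and overlapping groups. With the mean of all probe sets *Spcs1* and *Spcs2* had -0.15 and -0.22, and *Spcs2* had -0.07 after quantile normalization.

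On the brightest probe sets of the OST, signals of the catalytic subunit of the translocon-bound form and both ribophorins were lower in *Jarid2* Δpanc. The other catalytic subunit was level with the controls, and no OST gene passed the test over all genes. *Rpn1*, ribophorin I, had signals of 6209, 7090 and 6114 in *Jarid2* WT and 5077, 5495 and 5398 in *Jarid2* Δpanc. Its groups were separate on all 5 of its bright probe sets, with log2 fold changes from -0.29 to -0.25 (-0.28 on the brightest, SE 0.07, adjusted p = 0.408). *Rpn2*, ribophorin II, had 1507, 1808 and 1575 in *Jarid2* WT and 1375, 1363 and 1360 in *Jarid2* Δpanc. The *Jarid2* Δpanc samples were nearly equal, below controls of which replicate 2 was the highest (log2 fold change -0.25, SE 0.07). *Stt3a*, the catalytic subunit that glycosylates chains as they enter, had 5727, 5951 and 5136 in *Jarid2* WT and 4737, 4693 and 4496 in *Jarid2* Δpanc. The groups were separate at a log2 fold change of -0.27 (SE 0.06, adjusted p = 0.375), and its next probe set had -0.19 with groups that met at 2330. It had -0.18 after quantile normalization and -0.09 with the mean of its 4 probe sets. *Stt3b*, which glycosylates sites skipped on entry, had a log2 fold change of 0.01 with a 95% interval from -0.17 to 0.18. *Dad1* had 0.00 on its brightest probe set and -0.18 on the other, and *Ddost* had -0.14 with overlapping groups.

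**Figure D3:**
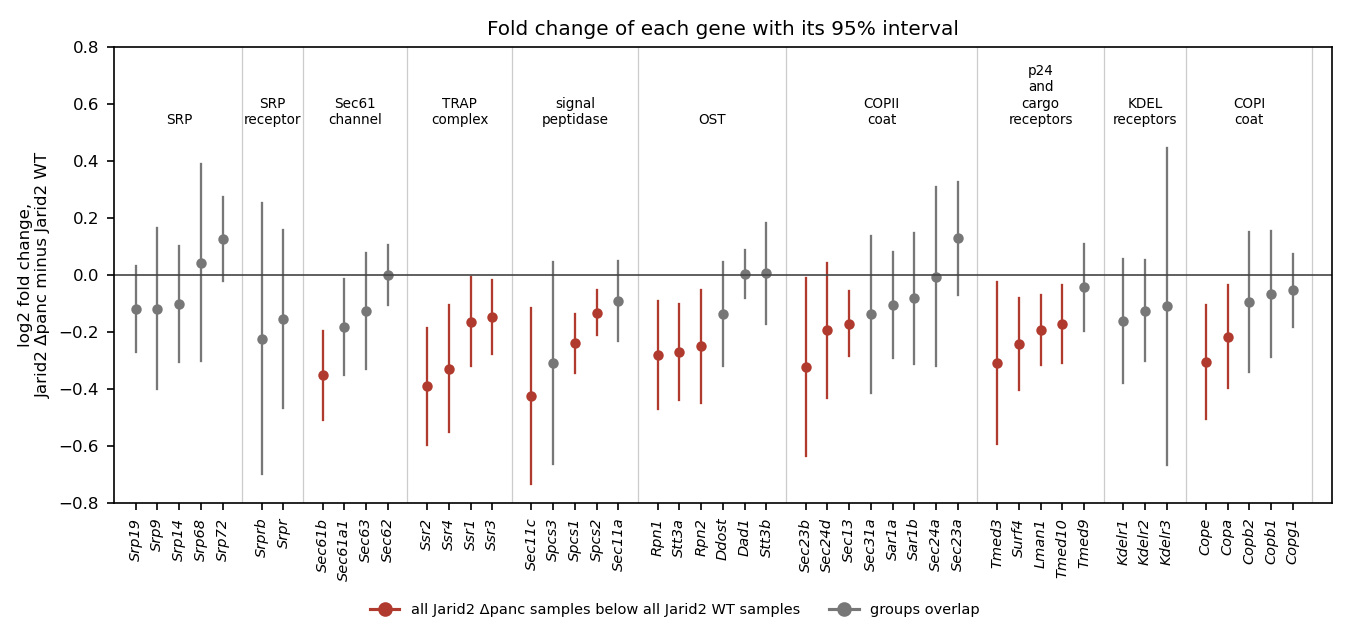
Log2 fold change of *Jarid2* Δpanc over *Jarid2* WT for 47 genes (points) with 95% intervals from limma (bars), grouped by machine and ordered by size within each. Red genes, in which all *Jarid2* Δpanc samples lay below all controls on the brightest probe set, make up the whole TRAP complex. No gene of the SRP, its receptor or the KDEL receptors is red, though further probe sets of *Srp72*, *Srprb* and *Kdelr2* had separate groups.

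The COPII coat, which buds vesicles from ER exit sites, had 3 of 8 genes with separate groups. *Sec23b*, a subunit of the inner coat, had signals of 1624, 1802 and 1369 in *Jarid2* WT and 1210, 1361 and 1245 in *Jarid2* Δpanc. The highest *Jarid2* Δpanc sample came just under the lowest control, and the log2 fold change was -0.32 (SE 0.12, adjusted p = 0.549). *Sec24d*, an inner subunit that selects cargo and one of the genes with the promoter motif shown above, had 946, 1095 and 879 in *Jarid2* WT and 870, 828 and 844 in *Jarid2* Δpanc. Here too the groups nearly touched, and the 95% interval of the log2 fold change of -0.19 ran from -0.43 to 0.04, with -0.11 when *Jarid2* WT replicate 2 was left out. *Sec13*, part of the outer cage, had 965, 969 and 932 in *Jarid2* WT and 869, 802 and 877 in *Jarid2* Δpanc, with a wider gap and a log2 fold change of -0.17 (SE 0.04, adjusted p = 0.403). The remaining COPII genes had overlapping groups. These were the GTPases *Sar1a* (-0.10) and *Sar1b* (-0.08), which start the coat, the inner subunits *Sec23a* (0.13) and *Sec24a* (-0.01), and *Sec31a* (-0.14) of the cage.

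Genes for p24 proteins and cargo receptors, which load vesicles, had separate groups in 4 of the 5 with signal. *Tmed3*, a p24 protein, had signals of 2342, 2674 and 2050 in *Jarid2* WT and 1958, 1831 and 1885 in *Jarid2* Δpanc. Its controls were spread widely and the *Jarid2* Δpanc samples tightly, at a log2 fold change of -0.31 (SE 0.11, adjusted p = 0.530). *Tmed10*, a p24 protein of the same complexes, had 1138, 1190 and 1119 in *Jarid2* WT and 980, 994 and 1088 in *Jarid2* Δpanc (log2 fold change -0.17, SE 0.05). *Lman1*, the lectin that carries glycoproteins out of the ER, had 2061, 1867 and 1883 in *Jarid2* WT and 1662, 1691 and 1728 in *Jarid2* Δpanc. The gap between the groups was wider than the range of the *Jarid2* Δpanc samples, and the log2 fold change was -0.19 (SE 0.05, adjusted p = 0.379), or -0.07 with the mean of its 5 probe sets. *Surf4*, a receptor for soluble cargo, had 1216, 1282 and 1253 in *Jarid2* WT and 1102, 972 and 1103 in *Jarid2* Δpanc, again with separate groups (log2 fold change -0.24, SE 0.06, adjusted p = 0.403). *Tmed9* had -0.04 with overlapping groups.

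On the return route, KDEL receptors, which catch escaped ER proteins in the Golgi, had overlapping groups in each of 3 genes on the brightest probe set. *Kdelr2* had signals of 3371, 3777 and 3657 in *Jarid2* WT and 3171, 3544 and 3197 in *Jarid2* Δpanc, with replicate 2 of *Jarid2* Δpanc inside the control range (log2 fold change -0.12, SE 0.07, adjusted p = 0.713, and -0.07 after quantile normalization). The second probe set of *Kdelr2* had -0.20, with all *Jarid2* Δpanc samples below all controls. *Kdelr1* and *Kdelr3* had -0.16 and -0.11, the latter with a SE of 0.21. In the COPI coat, 2 of 5 genes had separate groups. *Copa*, the α subunit, had 1872, 2011 and 1907 in *Jarid2* WT and 1567, 1817 and 1610 in *Jarid2* Δpanc. *Cope*, the ε subunit, had 1859, 1967 and 1714 in *Jarid2* WT and 1609, 1415 and 1458 in *Jarid2* Δpanc. Replicate 2 of *Jarid2* Δpanc came closest to the controls in *Copa*, and replicate 1 in *Cope*. *Cope* had a log2 fold change of -0.31 (SE 0.08, adjusted p = 0.393), and *Copa* had -0.22 (SE 0.07, adjusted p = 0.490). A dim second probe set of *Copa*, with a mean signal of 33.3, had 1.12, and the mean of both probe sets gave 0.45. *Copb1*, *Copb2* and *Copg1* had -0.07, -0.10 and -0.05, with overlapping groups.

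Further probe sets were also read for these genes. Beyond the brightest probe set of each gene, 36 further probe sets of 22 genes had a mean signal of at least 200. Of these, 30 had negative log2 fold changes, 13 had all *Jarid2* Δpanc samples below all controls and 0 had them above, with a median of -0.18. Over all genes, each on its brightest probe set, 5.66% lay below and 5.71% above. For genes with a mean signal over 1000 these shares were 19.3% and 3.67%. No share was counted over all probe sets of like brightness. The second probe sets of *Spcs1* and *Spcs2* had -0.24 and -0.31, both with separate groups. *Sec61a1*, whose brightest probe set had groups that met, had -0.25 and -0.19 on the next ones, both with separate groups. The brightest probe sets of *Rpn1*, *Stt3a*, *Ssr3*, *Surf4* and *Srp14* are of a type whose probes can match other transcripts too. Those of *Ssr4*, *Lman1*, *Sec62* and *Sec63* are of another type with the same limit. Further bright probe sets of *Rpn1* share it as well. Probe sets of a gene share its RNA and are not further replicates.

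Some paired subunits stood apart from each other within the same samples. On the brightest probe sets, the ratio of *Stt3a* to *Stt3b* was lower in all 3 *Jarid2* Δpanc samples than in any control. The difference between the groups was -0.28 on the log2 scale (SE 0.09, two-sided exact permutation p = 0.1). The next probe set of *Stt3a* had 2278 in *Jarid2* Δpanc replicate 1 and 2330 in *Jarid2* WT replicate 3. *Stt3b* had 2987 and 3131 in these samples, so that with this probe set the ratios of the groups overlap. The ratio of *Sec11c* to *Sec11a* was also lower in all *Jarid2* Δpanc samples on the brightest probe sets, with a difference of -0.33 (SE 0.10, exact permutation p = 0.1). For *Sec23b* over *Sec23a* the difference was -0.45 (SE 0.19), but the groups overlapped (exact permutation p = 0.2). *Sec24d* over *Sec24a* had -0.19 and *Sar1b* over *Sar1a* 0.02 (exact permutation p = 0.7 and 1). The 5 pairs were chosen after their values were seen, 0.1 is the smallest p that 3 samples against 3 can give, and the lowest value adjusted over the 5 pairs was 0.25.

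**Figure D4:**
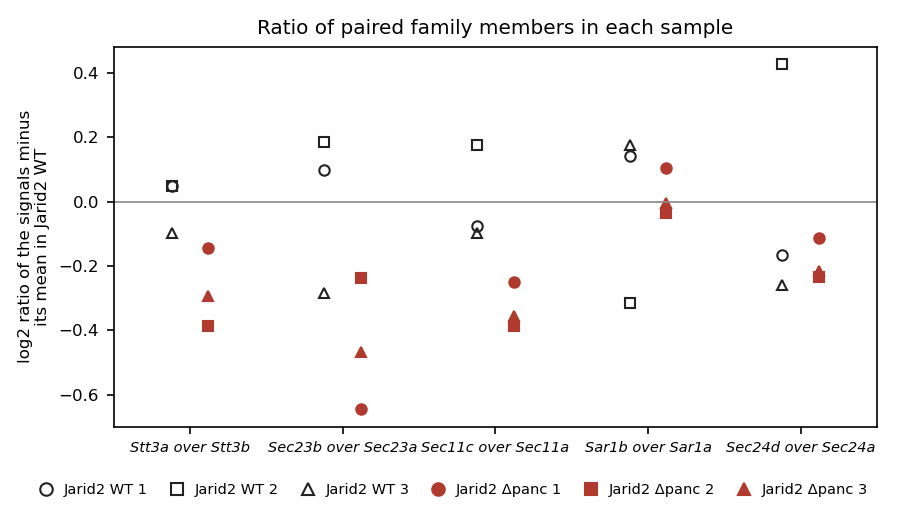
Log2 ratio of the signals of 2 related subunits per sample, on the brightest probe set of each, set against the mean ratio of the controls (open black symbols, *Jarid2* WT; filled red symbols, *Jarid2* Δpanc). The red symbols lie below all open symbols for *Stt3a* over *Stt3b* and *Sec11c* over *Sec11a*, and overlap with them for the other 3 pairs.

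The controls also differed among themselves. *Jarid2* WT replicate 2 had the highest control signal in 30 of the 47 genes with signal and *Jarid2* WT replicate 3 the lowest in 30. Averaged over the 48 genes, log2 signals of *Jarid2* WT replicates 1, 2 and 3 lay at 0.00, 0.05 and -0.05 around their mean, and those of the *Jarid2* Δpanc samples at -0.17, -0.14 and -0.15. The distance of each *Jarid2* Δpanc sample from the lowest control was thus of the same order as the spread of the controls. Without *Jarid2* WT replicate 3, the sample with high muscle transcripts, the median log2 fold change of the list was -0.18.

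Signals of the cells that use this machinery most moved in the same direction. Of 19 measured genes for secreted acinar enzymes, 12 had all *Jarid2* Δpanc samples below all controls, against 5.66% of all genes, with a median log2 fold change of -0.48. Their summed signal ranged from 81534 to 95677 among the controls and from 62064 to 73339 among the *Jarid2* Δpanc samples. Among the controls their mean was also highest in *Jarid2* WT replicate 2 and lowest in replicate 3, at 0.32 and -0.20. In *Jarid2* Δpanc replicates 1 to 3 it was -0.70, -0.80 and -0.85, whereas the secretory machinery was lowest in replicate 1 (-0.17, -0.14 and -0.15). Of 11 endocrine genes, 7 lay below, with a median of -0.41 and summed signals of 21245 to 24528 among the controls and 12832 to 14663 in *Jarid2* Δpanc. Their mean was likewise highest in *Jarid2* WT replicate 2 and lowest in replicate 3 among the controls, at 0.09 and -0.07. Duct and trunk genes (0 of 7 below), mesenchyme genes (0 of 12) and endothelial genes (0 of 8) had medians of -0.08, 0.10 and 0.12. The summed signal of the mesenchyme genes ranged from 31418 to 38695 among the controls and from 34958 to 39845 among the *Jarid2* Δpanc samples. Of 10 macrophage and leukocyte genes, 1 lay below and 1 above, and their mean was highest in *Jarid2* Δpanc replicate 1. The part of the share of each cell type in the lower signals of the secretory machinery was not tested.

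**Figure D5:**
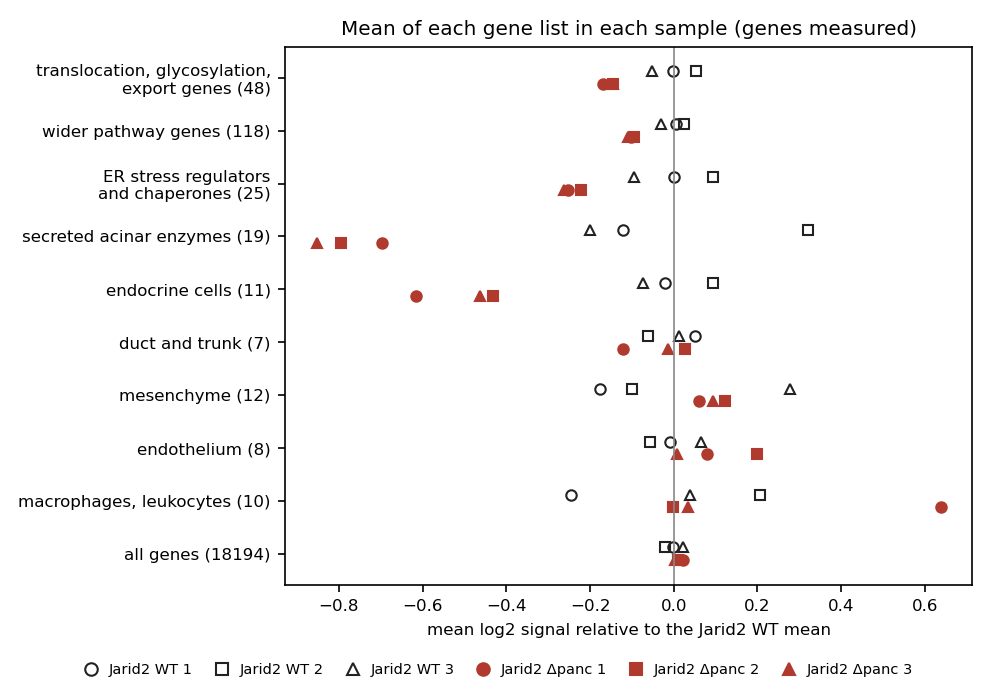
Mean log2 signal of each gene list per sample, set against the average of the controls, with the number of genes measured in brackets (open black symbols, *Jarid2* WT; filled red symbols, *Jarid2* Δpanc). The 3 red symbols lie below all open symbols for the secretory machinery, the wider pathway, ER chaperones, acinar enzymes and endocrine genes, and they overlap with the open symbols for duct, mesenchyme, endothelium and macrophage genes.

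Other genes of the same route were counted in the same way. Of 118 measured genes of protein entry, glycan assembly and trimming and ER to Golgi transport, 25 were lower and 1 was higher at an unadjusted p under 0.05 in limma. Over all genes these shares were 4.44% and 4.36%. Separate groups lay below the controls in 34 (28.8%) and above them in 3 (2.54%), and the median log2 fold change was -0.08. All genes had 5.66% below and 5.71% above, and genes with a mean signal over 1000 had 19.3% and 3.67%. None passed over all genes. Trimming of N-glycans, by which the ER reads how well a glycoprotein is folded, had 7 of 9 genes below. *Edem2*, which removes mannose from misfolded glycoproteins, had signals of 1461, 1689 and 1398 in *Jarid2* WT and 1025, 1077 and 1052 in *Jarid2* Δpanc. Its log2 fold change was -0.52 (SE 0.08, adjusted p = 0.250), and its relative *Edem1* had -0.47. *Prkcsh*, the β subunit of glucosidase II, had -0.13.

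Of 28 measured genes of dolichol and N-glycan assembly, 5 (17.9%) lay below and 0 above, with a median of -0.07. Among them *Gmppb*, which makes GDP-mannose, had a log2 fold change of -0.53 with a SE of 0.23, and *Alg5*, which makes the glucose donor for the growing glycan, had -0.36. Of 11 further SRP, translocon and OST genes, 6 lay below and 1 above. *Tram2* lay above, with signals of 75, 61 and 89 in *Jarid2* WT and 129, 93 and 100 in *Jarid2* Δpanc (log2 fold change 0.52, SE 0.20), and *Ost4*, the small OST subunit, lay below at -0.12. *Tram1*, a membrane protein beside the channel that was chosen after its values were seen, had 2102, 2208 and 2073 in *Jarid2* WT and 1649, 1679 and 1686 in *Jarid2* Δpanc. The gap between its groups was wider than the range of either (log2 fold change -0.35, SE 0.03, adjusted p = 0.218 in limma).

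Among other p24 and cargo receptor genes, 3 of 11 (27.3%) lay below. *Tmed6*, a p24 protein, had 2544, 2616 and 1929 in *Jarid2* WT and 1676, 1524 and 1571 in *Jarid2* Δpanc, the most negative log2 fold change of the wider list (-0.56, SE 0.14, adjusted p = 0.385). *Ergic2*, a protein of the compartment between ER and Golgi, lay above at 0.18. Of 25 genes for tethers and SNAREs, which bring vesicles to the Golgi, 6 lay below and 1 above. The latter was *Trappc3*, a tether subunit, with 421, 428 and 491 in *Jarid2* WT and 520, 525 and 522 in *Jarid2* Δpanc (log2 fold change 0.23, SE 0.07, adjusted p = 0.444). ER membrane insertion genes had 2 of 14 (14.3%) below and a median of -0.03. The shares of glycan assembly, tethers and membrane insertion were thus nearer the 19.3% of bright genes than those of trimming.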

How the data were processed

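The authors deposited linear intensities of 45101 probe sets per array. The submitters' processing notes name MAS5, with no version, and the trimmed mean was 150 on every array. The methods of the study name RMA and LIMMA, and the RMA values were not used here. Values under 16 (26.5% to 29.0% per array) were raised to 16 before log2. Of 35890 annotated probe sets, 34958 carry 1 gene symbol, and the brightest stood for each of 18194 genes. The test was limma 3.58.1 run in R 4.3.3 (lmFit, eBayes, Benjamini-Hochberg adjustment over all genes, threshold 0.05), and ratios with exact permutation tests (scipy 1.17.1). The fit was tested on simulated data. The precision is limited by 3 arrays per group. Per the labels each sample is the pancreas of an embryo, and p-values measure the spread between these samples. The genes and lists were chosen with earlier results of these data known. Genes described in full were those with separate groups and the brightest of each machine, and in the wider list the 5 lowest and 5 highest fold changes among genes with separate groups. Alternatives covered each sample left out, the replicate block, normalization, floor, filters, probe sets, variance model and controls. Some listed genes were not analysed here because their probe sets name several genes.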

Additional observations from a re-analysis of the deposited data

How the results depend on the processing

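The 23 genes of the list given with all sample values kept the sign of their log2 fold change in 367 of 368 values under 16 alternatives. Of these alternatives, 3 were chosen after seeing the data. The exception was *Copa* at 0.45 with the mean of all probe sets, where its dim probe set enters. Many of the values could not have changed sign. The replicate block, the floors, the filters and the variance models repeat the main fold change of these genes by construction. Where groups were separate, leaving out samples cannot reverse the sign either. Sizes moved by over 1.5 times in 29 of the 368 values, 7 of them after quantile normalization and 6 with the mean of all probe sets. Another 11 moved with *Jarid2* WT replicate 3 as the only control, all toward smaller sizes. There *Srp19*, *Sec24d*, *Sec23b* and *Tmed3* had -0.02, -0.05, -0.11 and -0.12. *Ssr4*, *Stt3a* and *Sec11c* had -0.16, -0.15 and -0.25, and *Ssr1*, *Spcs2*, *Cope* and *Srpr* had -0.10, -0.09, -0.20 and -0.09. With each sample left out in turn, the list had 13 to 20 genes lower and 0 to 1 higher with unadjusted p under 0.05 (13 without *Jarid2* Δpanc replicate 3), 0 to 1 above all controls, and a median of -0.18 to -0.13, the former without *Jarid2* WT replicate 3. All genes called in limma were then 0 to 8 lower and 0 to 4 higher, and wider pathway genes higher at an unadjusted p under 0.05 were 0 to 3. Genes of the list lower at an unadjusted p under 0.05 numbered 13 (and 1 higher) after quantile normalization, 9 with a floor of 1, 12 without genes at the floor and 7 with *Jarid2* WT replicate 3 as the only control, against 20. After quantile normalization 1 gene of the list lay above all controls (5.49% of all genes), and with the single control 2 lay above and 29 below it (20.1% and 22.2% of all genes). Over all genes limma called 2 lower and 1 higher after quantile normalization, 3 lower without dim genes, 53 lower and 9 higher without dim genes and with trended, robust variances, and 244 lower and 13 higher with the single control. With dim genes left out and trended, robust variances together, 2 genes of the list were called, *Sec61b* (adjusted p = 0.0353) and *Ssr2* (adjusted p = 0.0345), while trended, robust variances without that filter called 0 (adjusted p = 0.275 and 0.339). In the wider pathway, 16 genes were lower with a floor of 1, and 2 were higher without dim genes, with either variance model. Causes were not tested, other than for *Copa*.

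Samples of the same number did not deviate together (correlations of -0.02, -0.01 and -0.02), which gives no sign that the numbers pair them. Such correlations cannot exclude shared litters. The paper studied e15.5 mutants beside control littermates, and the sample titles do not name litters. With the replicate block, 16 genes of the list were lower at an unadjusted p under 0.05, and no gene of the list passed over all genes. Separate groups of a gene stay separate by construction when a sample is left out.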

Other observations

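ER chaperones and stress regulators, which fold the proteins that enter, were also lower in part. Of 25 genes measured, 11 (44%) had all *Jarid2* Δpanc samples below all controls and 0 above, and the median log2 fold change was -0.23. Over all genes 5.66% lay below and 5.71% above, and among genes with a mean signal over 1000 19.3% and 3.67%. The transcript of *Hspa5*, the main ER chaperone, had signals of 9868, 10586 and 8760 in *Jarid2* WT and 7977, 9471 and 8373 in *Jarid2* Δpanc, and its groups overlapped (log2 fold change -0.18, standard error 0.10, written SE below). *Xbp1*, whose spliced product activates genes of the secretory route, had 6959, 6930 and 6024 in *Jarid2* WT and 6202, 6234 and 6011 in *Jarid2* Δpanc, with overlapping groups and a log2 fold change of -0.11 (SE 0.07). These probe sets do not separate the spliced from the unspliced form. *Hsp90b1*, the ER form of Hsp90, had 8332, 7959 and 8551 in *Jarid2* WT and 7134, 7445 and 7557 in *Jarid2* Δpanc, with separate groups and a log2 fold change of -0.17 (SE 0.04, limma adjusted p = 0.361). *P4hb*, protein disulfide isomerase, had 7384, 7761 and 7058 in *Jarid2* WT and 5822, 6588 and 6059 in *Jarid2* Δpanc, also separate, with -0.27 (SE 0.06, adjusted p = 0.367). The difference between the chaperone list and the translocation and export list was not tested.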
